A study of Mus musculus with 8 samples.

Results

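Of 42995 probes in the authors' deposited log2 table, 203 (0.472%) had a higher mean with a myocardin virus in mouse aortic smooth muscle cells. Their mean in Srf knockout cells lay close to that in wild-type cells. The probes were chosen by their deposited values in culture. The mean in wild-type cells with AdMyocd minus that with AdEmpty had to be 2 or more on the log2 scale, a rise of at least 4-fold. The mean of Srf knockout cells minus the mean of wild-type cells, both with AdEmpty, also had to be under 0.5 in size. Both differences come from the cultured arrays, so the rise and the closeness to wild type are set by the choice and are given below as descriptions without a test. The levels in whole aorta and liver did not enter these bounds. Each probe of the deposited table was, however, detected above background on at least 4 of the 8 arrays, tissues included.

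The cultures were passage 3 aortic smooth muscle cells, transduced at a multiplicity of infection of 100 for 3 days, with 2 arrays in each group. They were wild-type cells with AdMyocd, an adenovirus carrying Myocd, then Srf knockout cells with AdEmpty, and wild-type cells with AdEmpty, the empty virus that both AdEmpty groups share. Freshly isolated wild-type aorta and liver had 1 array each, so differences between them have no replicate check. The labels say neither how Srf was deleted nor whether replicates were separate cultures, and Srf knockout cells with AdMyocd were not analysed here, so whether the rises need Srf was not measured.

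Myocardin is a transcriptional coactivator of smooth and cardiac muscle. It binds serum response factor, the product of Srf, on CArG elements and so drives contractile genes. Serum response factor also serves other cofactors, which link growth signals to early response genes. Long non-coding RNAs, for which the array has its own probe classes, are transcripts without a known protein product.

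Array brightness, taken as the 75th percentile of processed intensities, ranged between 452 and 498 in culture and was 364 for aorta and 165 for liver. Well above background, in the scanner software's own call, were 62.2% of probes on the liver array and 68.2% to 74.7% on the others. AdMyocd, aorta and liver arrays lay on slide 2 and all AdEmpty arrays on slide 1, so slide and AdMyocd cannot be told apart. No chosen probe carries a gene symbol, an accession or a sequence in the sources used here, so all are named by the maker's identifier. None of the marker lists for smooth muscle or other cell types could be matched, and the labelled tissues were not checked.

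The 203 probes were one part of a larger set that met the bound on the rise with AdMyocd. A rise of 2 or more was seen for 615 probes of the deposited values. Of these, 33.0% were the probes described here, 29.3% were lower in Srf knockout than in wild-type cells by 0.5 or more, and 37.7% were higher by 0.5 or more. Over all probes of the table, 66.3% lay within 0.5 in the knockout, 17.6% were lower and 16.1% were higher. These shares use the same wild-type arrays on both axes and were not tested.

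Most rises were modest, with a few of very large size. In the deposited values 125 probes rose by 2 to under 3, 46 by 3 to under 4 and 32 by 4 or more, and the median was 2.73. The knockout differences were spread around 0, with 89 above and 114 below it and a median of -0.02. Within 0.1 of the bound on the rise lay 13 probes on the inside and 19 on the outside. Just inside was ASMM10P005162 at 2.01, and just outside was ASMM10P039192, which is no member, at 1.999. Within 0.1 of the bound on the knockout difference lay 26 chosen probes and 33 induced probes beyond it. ASMM10P057170, at 0.4998, was just inside, and ASMM10P028778, at 0.504, was just outside.

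For 7 of the 203 probes, the rise came from a single AdMyocd spot that the scanner software had flagged as an outlier. ASMM10P003582 stood at 17.94 and 6.08 on the AdMyocd arrays in the deposited values, against 6.66 and 6.74 on the AdEmpty wild-type arrays. The higher AdMyocd value belongs to the flagged spot. Without flagged spots, the 7 rises, which were 2.15 to 5.31 in the deposited table, became -0.96 to 0.24 on the scale of levels used below. The deposited value of humanlincRNA2390+_P1 was 4.96 and 10.45 with AdMyocd, the second flagged, against 4.71 and 4.86 with AdEmpty. These probes were picked out after their values were seen. The other 196 rose by 2.01 or more on the scanner scale as well. Some of the results below are also given without the 7.

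A level, from here on, is the log2 processed intensity of a probe minus the 75th percentile of its own array, so 0 is that percentile itself. On this scale the median of the 203 probes was 0.01 and 0.14 on the AdMyocd arrays, over the 202 and 197 with an unflagged spot. It was -3.17 and -3.22 on the Srf knockout arrays and -3.36 and -3.26 on the wild-type AdEmpty arrays. The aorta array had a median of -1.63 and the liver array one of -1.88. Both AdMyocd arrays thus lay above all the others in the median, with aorta and liver between them and the 4 AdEmpty arrays.

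In culture without AdMyocd these probes belonged to the dim part of the deposited table. Ranked among all probes of the table, the median chosen probe lay at percentile 64.8 and 65.9 with AdMyocd, against 23.6 and 26.4 in wild-type cells with AdEmpty. The percentile was 24.9 and 23.0 in Srf knockout cells, 44.9 in aorta and 39.6 in liver. All probes of the table were also split into 4 bins of equal size by their wild-type level, at -3.32, -1.50 and 1.34. Of the 203, 101 fell into the dimmest bin, 48 into the next, 40 into the next and 14 into the brightest. Of all 615 induced probes, 278 fell into the dimmest bin. For the 203, the median rise on the scale of levels was 2.98, 2.83, 2.73 and 2.51 in these bins, dimmest first. The wild-type level sets the bins and is subtracted in the rise, so the dimness and this order are partly set by the choice. Of all induced probes in each bin, 36.3%, 37.2%, 30.1% and 18.7% were among the 203. Over all probes of these bins, 66.5%, 71.2%, 62.9% and 64.8% lay within 0.5 in the knockout.

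Detection of the 203 probes was highest with AdMyocd and lowest in liver. Liver was also lowest over all probes of the table, with 81.2% well above background there, 91.9% in aorta and 94.3% to 99.2% in culture. With AdMyocd 202 of the 203 probes were well above background on both arrays, while 164 were so on both Srf knockout arrays and 154 on both wild-type AdEmpty arrays. The choice asked for a rise over wild-type AdEmpty cells, so this order is partly set by it. In aorta 185 (91.1%) were detected and in liver 149 (73.4%), fewer than on any single AdEmpty array (163 to 179). A further 26 were well above background on 1 wild-type array and 23 on neither. For the 26, the wild-type mean includes 1 reading not well above background. For 22 of the 23, which both AdMyocd arrays detected, the rise is a lower bound, from at least 1.69-fold to at least 257-fold with a median of at least 4.32-fold. For the bound, a dim array counted at the lowest level of any probe well above background on it, or at the dim probe's own level where that was higher. For 11 of the 22 the bound was under 4-fold. The remaining probe, ASMM10P015009, named after its values were seen, was detected on 1 of the 2 AdMyocd arrays. Its levels were -5.87 and -1.16 with AdMyocd against -5.60 and -6.12 in wild-type cells with AdEmpty, so its groups overlapped and the rise rests on a single array.

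For 17 of the 23 no AdEmpty array, knockout or wild-type, was above background. Their closeness in the knockout is a closeness of background readings, and a change of level in Srf knockout cells was not detectable. Each probe in the deposited table had passed that background call on at least 4 of the 8 arrays. These 17 probes could therefore be in the table only if both AdMyocd arrays, aorta and liver all detected them, so their detection in the tissues is set by the table.

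The linear model fitted over all tested probes is given here only to place the members. It tested 202 of them, and 191 were called higher with AdMyocd (limma, Benjamini-Hochberg adjusted p under 0.05), where 7.99% of all 44081 tested probes were called higher and 7.2% lower. Among the 7 probes with a flagged spot, none was called higher and ASMM10P030783 was called lower, its unflagged AdMyocd level being -0.46 against 0.41 and 0.59 with AdEmpty. For the Srf knockout 1 of the 202 was called, against 20.6% of all tested probes in either direction (12.2% higher and 8.4% lower). It was ASMM10P023749, named after its values were seen, with levels of -3.19 and -3.19 in Srf knockout cells against -3.73 and -3.90 in wild-type cells. The contrasts are those of the choice, so nothing is read from these counts.

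Replicates of the chosen probes lay close together with AdMyocd. The choice used these same arrays and asked for AdMyocd values above those with AdEmpty, so this is a description only. The median absolute difference between replicates was 0.10 with AdMyocd, 0.18 in Srf knockout cells and 0.33 in wild-type cells with AdEmpty. Flagged spots were left out, so the 7 probes with a flagged AdMyocd spot do not count in the AdMyocd value. Over all probes of the table it was 0.15, 0.15 and 0.29. The bound of 0.5 on the knockout difference is therefore not far above the replicate difference of the wild-type arrays. On the scale of levels the median knockout difference was 0.12, where all probes had a median of 0.07, and 24 of the 203 differed by 0.5 or more in size. A small difference in 2 arrays against 2 does not show that a transcript was unaffected by loss of Srf.

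The largest rise was that of ASMM10P026145, which was bright with AdMyocd and dim on all other arrays. Without gene symbols, it could not be told whether this or any other chosen probe reads the Myocd carried by the virus. Its level was 8.51 and 8.48 with AdMyocd, -2.56 and -2.43 in Srf knockout cells, and -2.69 and -2.29 in wild-type cells with AdEmpty. Aorta stood at -3.81 and liver, not well above background, at -5.55. The mean rose 2031-fold on the linear scale, 8.50 ± 0.019 with AdMyocd against -2.49 ± 0.28 with AdEmpty (SD, n = 2 each). No AdMyocd value overlapped that of any other array.

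ASMM10P014268 behaved in a like way in culture. It read 7.34 and 7.37 with AdMyocd, -1.90 and -1.91 in Srf knockout cells and -2.18 and -2.18 in wild-type cells with AdEmpty, a 739-fold difference between AdMyocd and AdEmpty. Its level was -1.11 in aorta and -0.84 in liver. Both probes thus reached levels with AdMyocd that neither tissue approached.

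The brightest chosen probe in wild-type cells was ASMM10P036707. It stood at 7.17 and 7.22 with AdMyocd, 4.63 and 4.51 in Srf knockout cells and 4.48 and 4.78 in wild-type cells with AdEmpty. The rise was 5.91-fold, and aorta at 4.05 and liver at 3.98 lay a little below the AdEmpty cultures. Its neighbour in the maker's numbering, ASMM10P036706, was also chosen, with 7.02 and 7.03 with AdMyocd against 4.25 and 4.72 in wild-type cells with AdEmpty.

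Consecutive numbers occurred in 7 pairs of chosen probes, picked out here after their values were seen. The sources used here do not say whether consecutive numbers mark one transcript, so such probes may not be independent. ASMM10P052296, ASMM10P052297 and ASMM10P052298 formed a run with rises of 3.49, 3.44 and 3.55. In aorta they stood at 5.29, 3.01 and 3.84, close to their AdMyocd means of 5.07, 2.91 and 3.95. In liver they read 3.05, -3.17 and 0.89, each below its own aorta level. ASMM10P031208 and ASMM10P031209 rose by 8.13 and 3.34 and had aorta minus liver differences of -3.86 and -2.09, so both were higher in liver. ASMM10P031208 was not well above background on wild-type AdEmpty replicate 2, at -4.90, and its rise includes that reading.

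With regard to the class of identifier, the chosen probes were nearly all of one kind. ASMM10P identifiers made up 201 of the 203 (99.0%), against 97.4% of the table. The humanlincRNA class had 2 members (0.985% against 0.986%), and ASMM10UP, mouselincRNA and MM9LINCRNAEXON had none, where they made up 0.849%, 0.644% and 0.112% of the table. No test was made on counts this small. Without the probes that rest on a flagged spot, 195 ASMM10P probes and 1 humanlincRNA probe were left. The humanlincRNA probe with the larger rise in the deposited table, humanlincRNA2390+_P1, is the one with the flagged spot described above. The other, humanlincRNA1590+_P1, was named after its values were seen and was the only member of a lincRNA class without a flagged AdMyocd spot. Its levels were -1.82 and -1.98 with AdMyocd, -4.41 and -3.96 in Srf knockout cells and -4.17 and -4.13 in wild-type cells with AdEmpty. In aorta it stood at -2.45, near the AdMyocd level, and in liver at -3.88, not well above background.

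Aorta was set against cultured wild-type cells next. The median of aorta minus wild-type AdEmpty cells was 1.28 for the 203 probes and 0.09 for all probes of the table. Without the members that had a flagged AdMyocd spot it was 1.34. At least 4-fold higher in aorta than in wild-type cells were 71 of the 203 (35%), where 8.85% of all probes were, and 3 were at least 4-fold lower (1.48%, where 8.59% of all probes were). The count of 3 became 6 with quantile normalization and 6 in the deposited values. The wild-type arrays entered the choice, and probes chosen for a rise over them are dim there, so part of this difference is set by the choice. The median was 0.89 for the 154 probes detected on both wild-type arrays. It was 1.27 for the 26 detected on 1 of them and 3.51 for the 23 detected on neither. For 17 of these 23, detection in the tissues is set by the table, as given above. Aorta also shares slide 2 with the AdMyocd arrays, so slide and tissue cannot be told apart here. Aorta is whole tissue with several cell types, and fewer cells of a type cannot be told apart from less RNA per cell.

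Among probes detected in aorta and on both wild-type arrays, the 2 with the largest excess in aorta went well past the AdMyocd level. ASMM10P040390 read 4.19 in aorta, with 0.27 and 0.31 in AdMyocd cells and -3.92 and -4.12 in wild-type AdEmpty cells, so aorta was 296-fold above wild-type cells. Srf knockout cells stood at -4.31 and -4.20. ASMM10P022623 read 5.22 in aorta, against -0.66 and -0.57 with AdMyocd and -2.98 and -2.81 with AdEmpty in wild-type cells. For both, AdMyocd cells stood between wild-type AdEmpty cells and aorta.

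In the other direction, and again among probes detected on those arrays, ASMM10P007145 was far lower in aorta than in any culture. It stood at -0.40 in aorta, with 6.69 and 6.71 with AdMyocd, 4.07 and 3.996 in Srf knockout cells and 4.19 and 4.27 in wild-type cells with AdEmpty. Wild-type cultures were 24.9-fold above aorta. ASMM10P038008 was next among the detected probes, at 1.65 in aorta and 3.85 and 3.75 in wild-type AdEmpty cells, with 5.84 and 5.92 with AdMyocd.

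AdMyocd cells were also set directly against aorta. The probes were chosen for high values on these AdMyocd arrays, which raises this difference, so it is a description only. The median of AdMyocd cells minus aorta was 1.62, where all probes had -0.04. AdMyocd cells were at least 2-fold above aorta for 120 probes (59.1%), within 2-fold of it for 47 (23.2%) and at least 2-fold below it for 36 (17.7%), against 21.9%, 57.0% and 21.1% of all probes. These arrays share slide 2.

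Neither the aorta nor the liver array entered the bounds of the choice. Both count in the background call that every probe of the deposited table had passed, so detection in the tissues partly shaped the members. Of the 203 probes, 144 were well above background in both tissues, 41 in aorta and not liver, 5 in liver and not aorta, and 13 in neither. Over all probes of the table, detection was also lower in liver, at 81.2% against 91.9% in aorta. The median of aorta minus liver was 0.10 for the chosen probes (0.12 without those that had a flagged AdMyocd spot). It was -0.42 for all probes of the table, a gap of 0.52 between the medians of all chosen probes and all probes. That gap was 0.50 with quantile normalization, 0.48 in the deposited values and 0.24 with another background correction (normexp). The position of the median against 0 depended on the scaling, as the median of all probes did. A chosen probe was therefore placed relative to the others, not by sign.

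At least 4-fold higher in aorta than in liver were 46 of the 203 probes (22.7%), where 12.4% of all probes of the table were. At least 4-fold lower in aorta were 24 (11.8%), where 10.9% of all probes were. A probe dim in one tissue counted by its lower bound. None of the 7 probes with a flagged AdMyocd spot was among the 46 or the 24, so the shares were 23.5% and 12.2% of the other 196. Each tissue had 1 array, and these shares were not tested.

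Probes on the aorta side were brighter in culture than those on the liver side. The median levels of the 46 were 1.69 with AdMyocd, -2.16 with AdEmpty in wild-type cells, 2.14 in aorta and -2.01 in liver, and 41 of them were well above background on both wild-type AdEmpty arrays. The median levels of the 24 were 0.28 with AdMyocd, -3.90 with AdEmpty, -2.20 in aorta and 1.66 in liver. The median rise was 2.91 for the 46 and 3.20 for the 24. Of the 23 probes not detected in wild-type cells, 8 were at least 4-fold lower in aorta than liver and 1 was at least 4-fold higher, and 7 of the 8 were among the 17 not detected on any AdEmpty array. Of the 154 detected on both wild-type arrays, 15 were lower and 41 higher by that measure. The condition for a place in the table bears on the undetected probes, as given above.

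Among probes detected in both tissues, ASMM10P015116 had the highest aorta level relative to liver. It stood at 6.92 in aorta and 0.50 in liver, 85.2-fold apart. In culture it read 3.62 and 3.48 with AdMyocd, 0.89 and 0.83 in Srf knockout cells and 0.98 and 0.23 in wild-type cells with AdEmpty. ASMM10P010748 followed with 3.55 in aorta and -2.82 in liver, against -1.11 and -1.14 with AdMyocd and -3.44 and -4.42 with AdEmpty in wild-type cells. Both were far higher in aorta than with AdMyocd in culture.

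The lowest aorta levels relative to liver belonged to ASMM10P051341 and ASMM10P013179. ASMM10P051341 read -4.01 in aorta and 4.73 in liver, a 429-fold excess in liver. It was not detected on any AdEmpty array, and with AdMyocd it reached only -2.85 and -2.70, at least 4.66-fold above wild-type cells. ASMM10P013179 read 2.38 in aorta and 10.03 in liver. It stood at 2.50 and 2.38 with AdMyocd, -1.03 and -0.93 in Srf knockout cells and -1.14 and -0.64 in wild-type cells with AdEmpty, so AdMyocd cells lay close to aorta while liver lay far above both.

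The other AdMyocd-induced probes, split by their knockout difference, give the closest comparison. Of the 203 probes described here 22.7% were at least 4-fold higher in aorta than liver, against 41.7% of the 180 that were lower in the knockout and 24.1% of the 232 that were higher. The medians of aorta minus liver were 0.10, 1.62 and 0.30. The 180 probes lower in the knockout had the highest share in all 4 scalings, with 24.6%, 44.4% and 26.7% under quantile normalization, 24.6%, 44.4% and 26.7% in the deposited values, and 16.3%, 28.3% and 15.9% with normexp. The differences between the sets were not tested, since tissues have 1 array each and probes are not replicates.

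Liver was at least 4-fold above wild-type cells for 27.6% of the 203 probes, against 13.3% of the probes lower in the knockout, 38.8% of those higher in it and 19.4% of all probes. At least 4-fold lower in liver were 3.94% of the 203 and 17.1% of all probes. The wild-type arrays of this difference also defined the sets, and 54 of the 203 probes were not detected in liver, so nothing is read from these shares. The baseline differed between the sets. The median wild-type level was -3.36 and -3.26 for the 203 probes, against -1.36 and -1.29 for those lower in the knockout and -3.71 and -3.75 for those higher. The part of the baseline in the aorta and liver shares was not tested.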

How the data were processed

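The 8 RNA samples each had a Cy3 array. Spot intensities, already background-corrected, were produced by the authors with Agilent Feature Extraction 11.0.1.1, per the file headers. A series table of 42995 probes holds log2 values deposited by the authors, and no source used here gives its normalization. Its medians were 7.16 to 7.27, its direction followed the scanner values of the same arrays (Pearson's r across probes 0.997 to 1.00), and it includes spots flagged as outliers. The members were chosen in that table, and all levels come from the scanner values.

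Flagged and control spots were left out, repeat spots were averaged per probe as log2 values, and each array's 75th percentile was subtracted. Probes well above background on both arrays of a cultured group were tested (44081) with limma 3.58.1 in R 4.3.3 (lmFit and eBayes) over the 6 cultured arrays, two-sided, with 3 residual degrees of freedom. Calls needed a Benjamini-Hochberg adjusted p under 0.05. The fit was also run on simulated data with independent noise and no slide effect, which cannot show how slide bears on the calls. The labels do not say whether replicates were separate cultures, so p-values measure only how far these arrays differ, possibly for technical reasons. Shares over all probes in the tissues refer to the 42995 probes.

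The members and lists were chosen with earlier results of these data known. The named probes were those with the 2 largest rises, the 2 highest and 2 lowest differences of aorta to liver and of aorta to wild-type cells among detected probes, the highest baseline, the largest rise in a smaller class, and the nearest to each bound. Alternatives were other scalings and background corrections, filters, a replicate block and leaving out each array. The normexp alternative, planned on mean signals, used the median signals (offset 50), since the files used here have no mean signal.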

Additional observations from a re-analysis of the deposited data

How the results depend on the processing

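Applied to the scanner values in place of the deposited table, the same bounds chose 330 probes, of which 172 were among the 203 and 124 are not in the deposited table. With quantile normalization they chose 308, and with normexp 170, of which only 104 were among the 203. A bound of 0.25 on the knockout difference left 116 and a rise of 3 or more left 78. Leaving out 1 array at a time gave 192 to 235 probes, and without AdEmpty wild-type replicate 1 or 2 these shared 158 or 155 with the 203. Removing every probe with a flagged spot in culture, an alternative chosen after seeing the data, left 195.

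The number of probes called with AdMyocd was 6695. It was 4385 with the replicate block, 4211 without a filter on dim probes, 3906 with only the groups compared and 2155 to 9213 without single arrays, the lowest without AdMyocd replicate 2 and the highest without AdEmpty wild-type replicate 2. In the knockout it was 9096, with 6377 under the replicate block, and 2701 to 13176 without single arrays, the lowest without Srf knockout replicate 1 and the highest without AdEmpty wild-type replicate 2. The member called in the knockout (1 of 202) became 3 under quantile normalization, 3 with normexp and 3 with the authors' log2 values. Trend and robust settings called 2. The limma fit with the replicate block, without a filter and with only the groups compared each called 0, with 13, 17 and 10 members at an unadjusted p under 0.05. Without single arrays it called 0 to 27, the most without AdEmpty wild-type replicate 2, and 13 without replicate 1. The cause was not tested. Where 1 array of a group was left, its spread was taken from the other groups. Replicate numbers are shared by the groups, but same-numbered arrays did not deviate together (correlations of 0.09, -0.07 and -0.26 between pairs of groups), so the numbers were not taken as a pairing.

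The members' median of aorta minus liver, 0.10, was 0.33 with quantile normalization, 0.33 in the authors' values, -0.33 with normexp, -0.23 for the probes chosen in the scanner values and -0.07 for those detected in both tissues. Aorta minus wild-type cells, 1.28, became 1.08 with quantile normalization, 1.08 in the authors' values, 0.75 with normexp, 0.86 for the probes chosen in the scanner values and 1.69 for those detected in both tissues. Liver minus wild-type cells, 1.07, became 0.59, 0.60, 1.35 and 1.60 with quantile normalization, the authors' values, the scanner-chosen probes and the probes detected in both tissues. With normexp 13 members, not 24, were at least 4-fold lower in aorta than liver, and 29, not 56, were at least 4-fold higher in liver than wild-type cells. Dim signals limit all of these differences, since 54 of the 203 probes were not well above background in liver.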
